A study of Mus musculus with 4 samples.

Results

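Visceral endoderm transport and secreted proteins were represented by 10 genes, chosen by name: Afp, Ttr, Rbp4 and Afm (carriers of ligands in blood plasma), Apoa1, Apoa2 and Apob (apolipoproteins), and Lrp2, Cubn and Amn (receptors for endocytosis). All 10 were found, out of 27591 genes on the array, through their names or accessions. They had 17 of the 41174 gene probes. A probe counted as measured if, on both arrays, the scanner software marked at least 1 genotype as well above background. By this filter 15 of the 17 probes and all 10 genes were measured. The genes were not chosen by measured values in the rule, but they were proposed with earlier results of these data known.

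The samples were distal pieces of mouse embryos of about E7.75, the early headfold stage, and held the node. The homozygous group was Noto GFP/GFP and the control group Noto GFP/+, so both groups carried the GFP allele of Noto, a transcription factor gene active in the node, on an Sv129/CD-1 hybrid background. Per the labels, pieces of 120 to 150 embryos were pooled, and the piece is the distal 1 of 2 parts of the embryo by the sample titles and 1 of 3 parts by the protocol. One RNA pool of each genotype was hybridised together on array 1 (homozygote in Cy5, heterozygote in Cy3), and array 2 repeated this with the dyes exchanged, so that each group has 2 samples, which are technical repeats. No difference has a biological replicate check, no test was made, and every SD below is over the 2 arrays. Noto itself was not analysed here.

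Visceral endoderm is the extraembryonic epithelium that covers the early embryo and later lines the yolk sac. It makes plasma proteins that the liver takes over later, and it takes up maternal protein and lipid through receptors on its outer face. Around the headfold stage its cells are mixed with definitive endoderm on the surface of the embryo, so its RNA can be present in an embryonic piece.

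The oligonucleotides on the array are 60 bases long. Their positions are given on mouse build mm8, as in the files. Of the member probes, 4 have genomic positions that span 146 to 2210 bases and so cross an exon junction, which ties them to spliced RNA; the position of the Ttr probe spans 61 bases, and no junction is read from that. The 4 are shown because they include 2 of the 4 Lrp2 probes and the only Amn probe. No part is in capitals, since the junction base was not determined.
Lrp2 probe 3 (chr2:69237574-69238311, minus strand): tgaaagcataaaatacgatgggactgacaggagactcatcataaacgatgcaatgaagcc
Lrp2 probe 4 (chr2:69308666-69308811, minus strand): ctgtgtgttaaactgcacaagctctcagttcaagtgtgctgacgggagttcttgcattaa
Amn probe (chr12:111723692-111723840, plus strand): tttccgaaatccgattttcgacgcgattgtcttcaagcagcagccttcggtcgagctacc
Apob probe 4 (chr12:8024684-8026893, plus strand): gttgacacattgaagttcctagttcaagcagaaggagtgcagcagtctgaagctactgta
For Afm, the first 30 bases of both probes are shown, because 1 probe was measured and the other was not.
Afm probe 1 (chr5:91628664-91628723): agaatggaatagaaggtttttccgtaaccc
Afm probe 2 (chr5:91623594-91623653): aacagtgaccatcctagagctgagtttatt
Probes of a gene are numbered from the brightest. Which part of a gene the other probes cover was not examined.

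Of the 10 genes, Afm was higher in the homozygous pool and none was lower, where higher or lower means that both arrays gave at least 1.5-fold (a log2 ratio of 0.58) with the same sign. On array 2 Afm passed the filter on dim probes through the homozygote alone, so its call rests there on a heterozygous signal not well above background, and nothing is read from the count of 1. With both genotypes required to be well above background on both arrays, Afm was not measured and 0 members were higher. By this size rule 0.0591% of the 18607 measured genes were higher and 2.35% were lower. By probe, 1 of the 15 measured member probes was higher, against 0.0864% of all measured probes, and none was lower, against 2.01%. Ratios of Lrp2, Cubn, Apob and Afp were above 0 on both arrays without reaching the rule, and those of Apoa1, Apoa2, Amn, Rbp4 and Ttr changed sign between the arrays. No member had a ratio below 0 on both arrays, against 34% of all measured genes, and 5 had ratios above 0 on both, against 25.7%. Without Afm, 4 had ratios above 0 on both. The share below 0 on both arrays was 25.1% of genes brighter than the median, as most members were, and 42.9% of dimmer ones. The median log2 ratio of homozygote over heterozygote was 0.04 ± 0.05 over the members and -0.02 ± 0.01 over all measured genes. It was 0.02 without Afm. In pooled tissue, fewer cells of a type and less RNA per cell cannot be told apart.

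**Figure D1:**
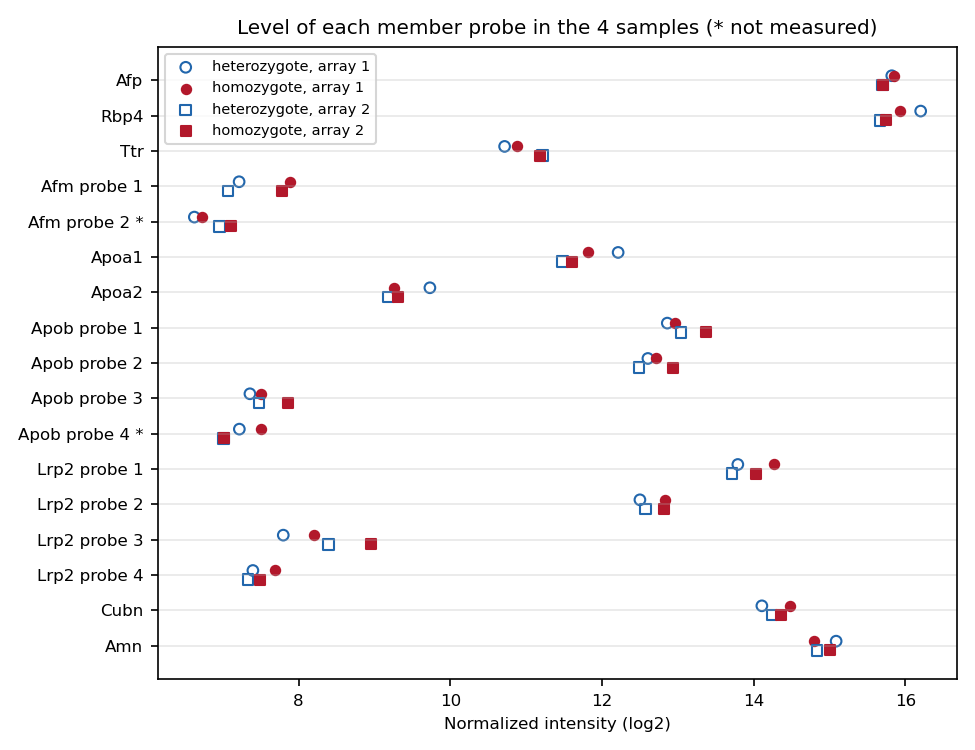
Normalized log2 intensity (x axis) of the 17 member probes (rows, probes of a gene numbered from the brightest) in the 4 samples; open blue symbols are the heterozygote, filled red symbols the homozygote, circles array 1 and squares array 2. Both samples of the homozygote lie above both of the heterozygote for Afm probe 1, Lrp2 probes 1, 2 and 4, Apob probes 2 and 3, and Cubn. For Apoa1 and Apoa2 the 2 heterozygous samples lie on either side of the homozygous ones.

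The carriers were led by Afp (alpha-fetoprotein), the main plasma protein of the embryo and a standard marker of visceral endoderm. Its probe (chromosome 5, 91583955 to 91584014) was printed in 10 spots on each array. Afp had normalized log2 intensities of 15.82 and 15.70 in the heterozygote and of 15.85 and 15.71 in the homozygote on arrays 1 and 2. The levels overlapped, and the log2 ratio was 0.02 ± 0.01 (0.03 and 0.01 on the 2 arrays). Over the 10 spots the ratio ranged from -0.04 to 0.07 on array 1 and from -0.07 to 0.08 on array 2, with an SD over spots of 0.04 and 0.05. Spots above 0 numbered 8 on array 1 and 6 on array 2. The Afp ratio was therefore smaller than the spread over spots on both arrays.

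**Figure D2:**
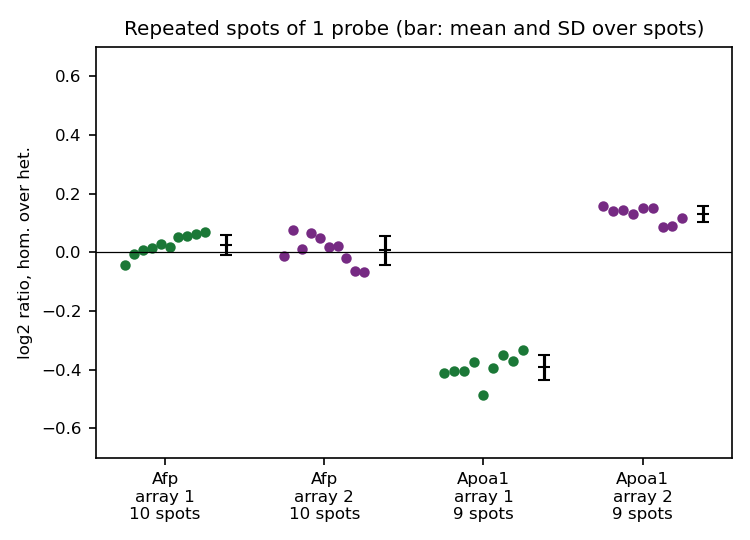
Log2 ratio of homozygote over heterozygote (y axis) in each spot of the Afp probe and the Apoa1 probe on both arrays; points are spots in the order of their position number, and the bars give the mean and SD over spots. Afp spots scatter around 0 on both arrays, whereas all 9 Apoa1 spots lie below 0 on array 1 and above 0 on array 2.

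Rbp4 carries retinol from its stores to tissues. Its levels were 16.20 and 15.67 in the heterozygote and 15.93 and 15.74 in the homozygote (chromosome 19, 38181783 to 38181842), with the homozygous values between the heterozygous ones. The log2 ratio was -0.28 on array 1 and 0.07 on array 2, with a mean of -0.10 ± 0.25. Ttr (transthyretin), on chromosome 18, carries thyroid hormone and holds RBP4 in plasma. It had levels of 10.72 and 11.22 in the heterozygote and 10.88 and 11.18 in the homozygote. Its ratios of 0.17 and -0.04 gave a mean of 0.06 ± 0.14, smaller than its spread.

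Afm encodes afamin, a vitamin E binding glycoprotein of the albumin family, and its measured probe lies 44650 bases from the Afp probe on chromosome 5. Afm had levels of 7.22 and 7.07 in the heterozygote and 7.88 and 7.79 in the homozygote. The genotypes did not overlap, and the log2 ratio was 0.67 on array 1 and 0.72 on array 2, a mean of 0.69 ± 0.04. The signal was faint. Foreground intensities were 142 over a background of 44 (heterozygote) and 244 over 56 (homozygote) on array 1, and 211 over 59 and 223 over 63 on array 2. The homozygote was well above background on both arrays and the heterozygote on array 1 only, so that the ratio of 0.72 on array 2 is set against a signal not well above background. The size of the ratio depended on the treatment of this background. It was 1.59 with the scanner software's log ratios and 1.29 with the deposited value table, and it fell short of the rule when loess was replaced by median centring (0.57), where array 1 gave 0.38.

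Afm probe 2, which lies 5070 bases from probe 1 and matches a kidney cDNA of the gene, was well above background in 0 of the 4 samples. It had ratios of 0.09 and 0.15, so it neither repeats nor bounds the ratio of probe 1. Among all genes dimmer than the median, 0.0967% were higher by the size rule and 4.06% lower. The measured genes with a standard symbol whose pair of ratios lay nearest to Afm over the 2 arrays were Hdac9 (0.70 and 0.62), Swsap1 (0.56 and 0.72), Cd38 (0.63 and 0.61), Prl2c3 (0.55 and 0.65) and Klhl6 (0.54 and 0.78). Likeness was the distance over these 2 arrays alone.

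**Figure D3:**
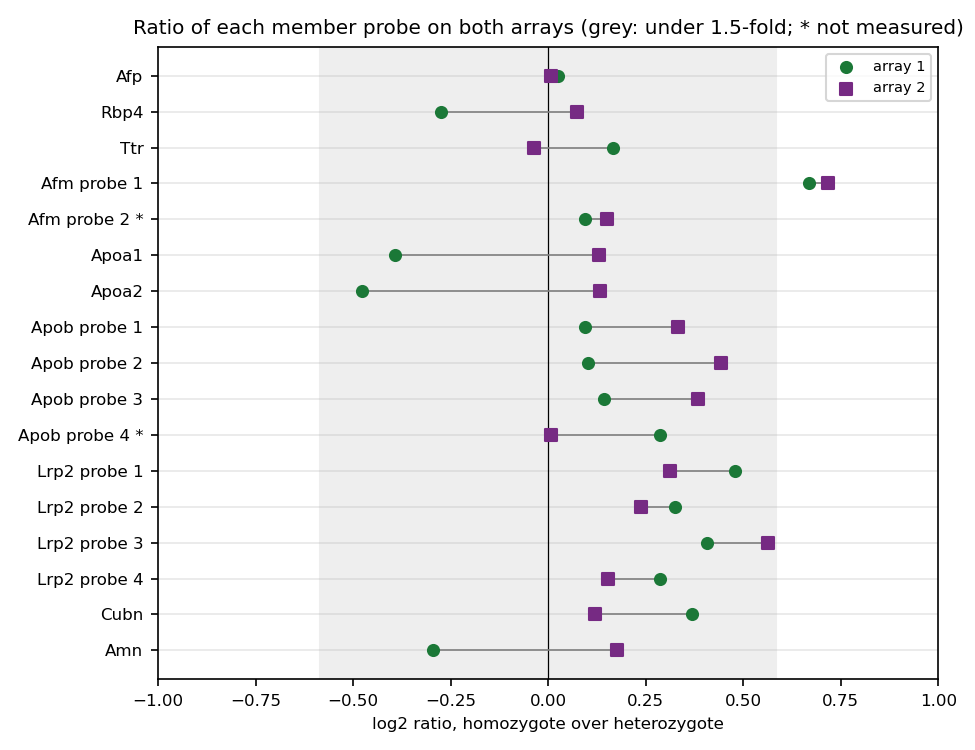
Log2 ratio of homozygote over heterozygote (x axis) of each of the 17 member probes (rows) on array 1 (green circles) and array 2 (purple squares), with the range under 1.5-fold in grey. Afm probe 1 lies outside the grey range on both arrays; all 4 Lrp2 probes and all 4 Apob probes lie above 0 on both.

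The apolipoproteins differed among themselves. Apob, the structural protein of lipoproteins that the yolk sac exports to the embryo, had ratios above 0 on both arrays with every probe. Apob probe 1 (chromosome 12, 8042396 to 8042455) had levels of 12.86 and 13.04 in the heterozygote and 12.96 and 13.37 in the homozygote, which overlapped. Its log2 ratio was 0.10 on array 1 and 0.33 on array 2, a mean of 0.21 ± 0.17. Probe 2 abuts it in the genome (8042336 to 8042395), and gave 0.10 and 0.44 (0.27 ± 0.24). Probe 3 (8037943 to 8038002) had ratios of 0.14 and 0.39 (0.26 ± 0.17). It was faint, with levels of 7.36 and 7.48 in the heterozygote and 7.50 and 7.86 in the homozygote. For probes 2 and 3 the levels in the homozygote lay above those in the heterozygote without overlap. Probe 4, the one that crosses an exon junction, was well above background in 2 samples, both on array 1, was not measured by the rule and had ratios of 0.29 and 0.01. With the processing used here, the 3 measured probes gave nearly the same mean and each had a larger ratio on array 2. Probes 1, 2 and 3 read 0.24, 0.28 and 0.61 with the scanner software's log ratios. With the deposited value table they read 0.23, 0.28 and 0.69.

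Apoa1 and Apoa2 encode the main proteins of high-density lipoprotein. Apoa1 (chromosome 9, 45980833 to 45980892) was printed in 10 spots on each array, of which 1 on each was left out as an outlier marked by the scanner software. Its levels were 12.21 and 11.48 in the heterozygote and 11.82 and 11.61 in the homozygote. The ratio was -0.39 on array 1, with a range over spots from -0.49 to -0.33, and 0.13 on array 2, with a range from 0.09 to 0.16. All 9 spots were below 0 on array 1 and all 9 above 0 on array 2. The SD over spots was 0.04 and 0.03, while the SD over the 2 arrays was 0.37 around a mean of -0.13. Repeated spots therefore measured the ratio within an array far more closely than the arrays repeated each other.

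Apoa2 (chromosome 1, 173062402 to 173062461) had levels of 9.73 and 9.18 in the heterozygote and 9.25 and 9.32 in the homozygote. With ratios of -0.48 and 0.13, its mean was -0.17 ± 0.43. The pair of high-density lipoprotein genes thus had nearly the same ratios on each array, and neither had a direction that both arrays shared.

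The receptors carry the uptake side of the tissue. Lrp2 (megalin) is a very large receptor of the low-density lipoprotein receptor family, which takes up carrier proteins, RBP4 among them, at the outer face of visceral endoderm and of kidney tubules. Lrp2 probe 1 (chromosome 2, 69225348 to 69225407) had levels of 13.79 and 13.71 in the heterozygote and 14.27 and 14.03 in the homozygote. The genotypes did not overlap. Its log2 ratio was 0.48 on array 1 and 0.31 on array 2, a mean of 0.40 ± 0.12 or 1.32-fold, below the size rule. The mean lay at percentile 98.7 of all measured genes.

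The other 3 Lrp2 probes had ratios of the same sign on both arrays. Probe 2 (69226430 to 69226489) had levels of 12.50 and 12.58 in the heterozygote and 12.83 and 12.81 in the homozygote, with a ratio of 0.28 ± 0.06. Probes 3 and 4, which cross exon junctions, gave 0.48 ± 0.11 (0.41 and 0.56) and 0.22 ± 0.09 (0.29 and 0.15). Probe 3 was 1.40-fold, the largest of the 4. Probes 3 and 4 were faint beside probes 1 and 2. Probe 3 had levels of 7.80 and 8.39 in the heterozygote and 8.20 and 8.96 in the homozygote, which overlapped. Those of probe 4 were 7.40 and 7.33 in the heterozygote and 7.68 and 7.49 in the homozygote. With the scanner software's log ratios probe 3 read 0.70 and 0.87 on the 2 arrays, past the size rule, and probe 4 read 0.54 and 0.35. Probe 4 was well above background in 3 of the 4 samples, and the others in all 4.

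Cubn encodes cubilin, a membrane-bound receptor for intrinsic factor, albumin and apolipoprotein A-I, and AMN (amnionless) anchors cubilin in the membrane and brings it to the cell surface. Cubn (chromosome 2, 13194214 to 13194273) had levels of 14.11 and 14.24 in the heterozygote and 14.48 and 14.36 in the homozygote, without overlap. Its ratio was 0.37 on array 1 and 0.12 on array 2, a mean of 0.24 ± 0.18. Amn had levels of 15.09 and 14.84 in the heterozygote and 14.79 and 15.01 in the homozygote, which overlapped. The ratio of Amn was -0.29 on array 1 and 0.18 on array 2, a mean of -0.06 ± 0.33. Of the 2 partners, Cubn had the higher ratio on array 1 and Amn on array 2, so the arrays did not share a direction for the difference between them.

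By the brightest probe, 3 members had levels in the homozygote above those in the heterozygote without overlap (Afm, Lrp2 and Cubn), and 0 the reverse. Among all measured genes 10.7% and 16.6% did so. Afm passed the filter on array 2 through the homozygote alone, so nothing is read from its place in this count. In 5 members the SD over arrays was larger than the mean ratio. Apoa1, Apoa2, Amn and Rbp4 had ratios below 0 on array 1 and above 0 on array 2, which means that the sample in Cy3 gave the stronger normalized signal on both arrays whatever its genotype, and Ttr had the opposite order. Opposite signs on the arrays were found for 5 of 10 members and for 40.4% of all measured genes.

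**Figure D4:**
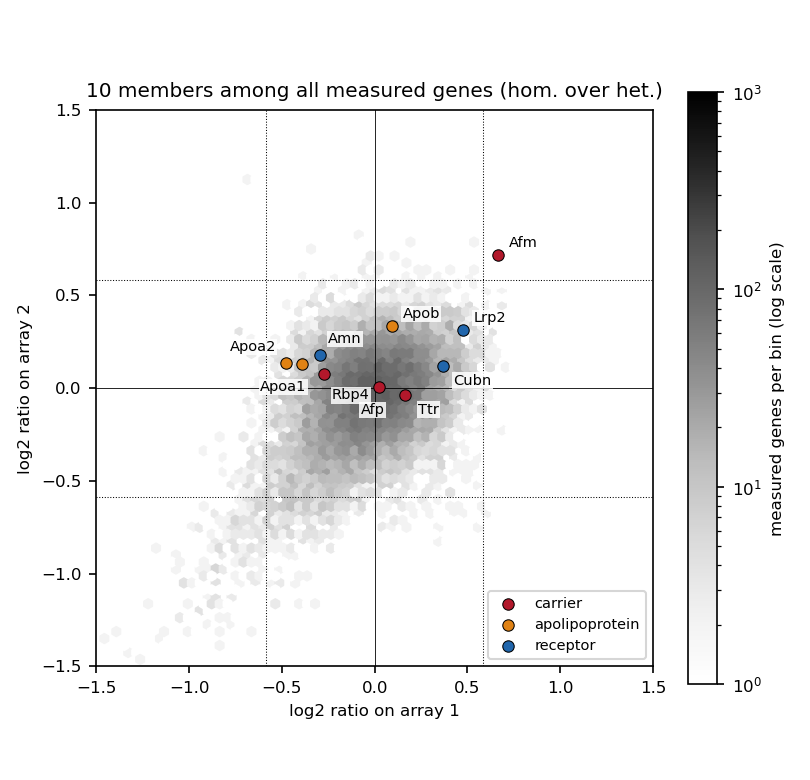
Log2 ratio of homozygote over heterozygote on array 1 (x axis) against array 2 (y axis) for the 10 members (coloured by role) over the density of all measured genes (grey hexagons, log colour scale; genes beyond 1.5 on either axis are not shown). Dotted lines mark the size rule; Afm alone of the members lies in the upper right corner past both lines, and Lrp2 comes next.

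Summed over the 10 genes on the linear scale, the members' log2 level in the homozygote differed from that in the heterozygote by -0.06 on array 1 and 0.11 on array 2. The sum, in which bright probes weigh most, had no direction that both arrays shared. The median ratio, in which each gene weighs the same, was 0.06 on array 1 and 0.13 on array 2 (0.03 and 0.13 without Afm), against -0.02 and -0.03 over all measured genes.

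Other genes of the same tissue did not meet the size rule. Lists of plasma proteins, lipoprotein genes, endocytic and brush border genes, transcription factors and other markers held 73 further genes of visceral endoderm. Of these, 60 were measured, 0 were higher and 0 lower. Among all measured genes 0.0591% were higher and 2.35% lower, so nothing is read from these counts. The median ratio of the 60 genes was -0.03 ± 0.01, with 13 (21.7%) above 0 on both arrays and 24 (40%) below 0 on both. Over all measured genes these shares were 25.7% and 34%. When loess was replaced by median centring, which moved the median of all genes to 0.12, the medians of the companion lists ran from -0.07 to 0.35. Those of lipoprotein (0.09), endocytic (0.16), other visceral endoderm (0.05), anterior visceral endoderm (0.11), trophoblast (0.12) and definitive endoderm (0.12) genes were then above 0. Among 14 measured plasma protein genes the median was 0.02 ± 0.07, with 3 above 0 and 4 below 0 on both arrays. Ambp, the precursor of alpha-1-microglobulin and bikunin, read 0.14 ± 0.10, the fibrinogen gamma chain gene Fgg -0.37 ± 0.17 and vitronectin, Vtn, -0.30 ± 0.10. Alb, the albumin gene next to Afp and Afm, was well above background in 1 sample and was not measured.

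Lipoprotein genes had a median of -0.06 ± 0.04 over 16 measured, of which 8 were below 0 on both arrays and 5 above. With the mean of all probes of each gene that median was -0.01. Apoe, which binds lipoproteins to their receptors, read -0.21 ± 0.17, and Apoc1 -0.38 ± 0.03. The cholesterol exporter gene Abca1 read 0.32 ± 0.48, with 0.65 on array 1 and -0.02 on array 2. Endocytic and brush border genes had a median of -0.03 ± 0.07 over 11 measured, with 1 above 0 and 3 below 0 on both arrays. The membrane linker ezrin, Ezr, read -0.11 ± 0.35, the endosomal chloride exchanger gene Clcn5 0.19 ± 0.12 and the adaptor gene Gipc1 -0.13 ± 0.15.

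Transcription factors of visceral endoderm had a median of 0.03 ± 0.03 over 11 measured, with 4 above 0 and 4 below 0 on both arrays. The median was -0.05 with the mean of all probes of each gene and -0.03 with array 1 left out. Foxa2 read 0.10 ± 0.29, Foxa3 -0.51 ± 0.02 and the GATA factor gene Gata6 -0.30 ± 0.05. Both Foxa genes are also listed for definitive endoderm and Foxa2 for the node. The remaining visceral endoderm markers had a median of -0.12 ± 0.01 over 8 measured, of which 0 were above 0 on both arrays and 5 below. With the mean of all probes of each gene that median was -0.02. The homeobox gene Rhox5 read 0.02 ± 0.04, the calcium binding protein gene S100g -0.33 ± 0.12 and the hedgehog ligand gene Ihh -0.20 ± 0.19.

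**Figure D5:**
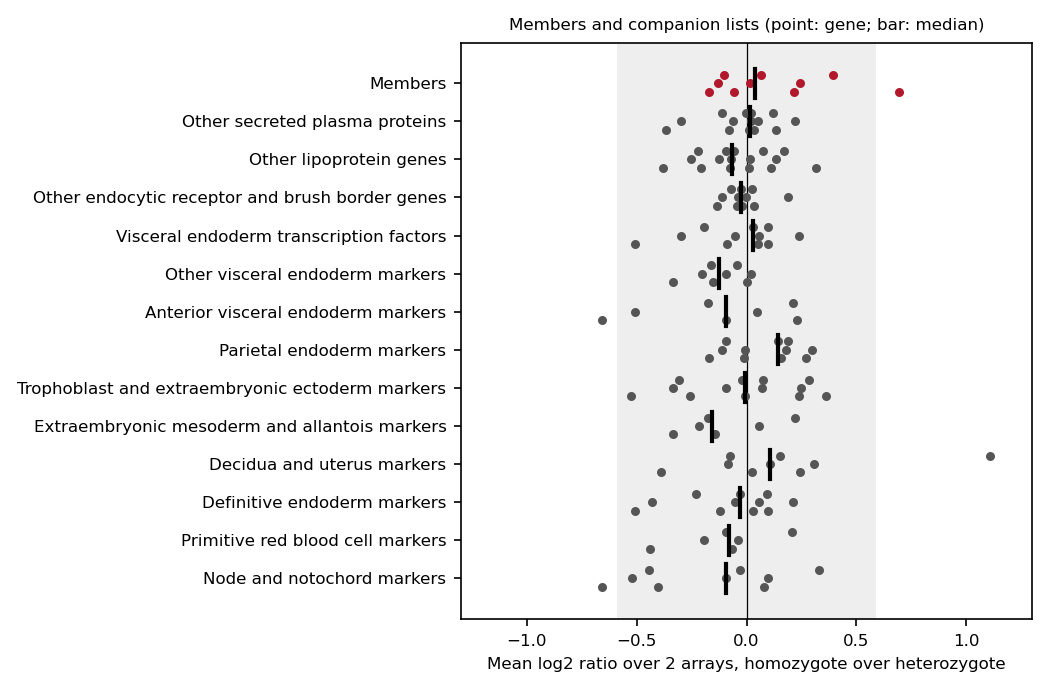
Mean log2 ratio of homozygote over heterozygote over the 2 arrays (x axis) for the members (red) and 13 companion lists (rows); each point is a gene, the black bar is the median, and grey marks less than 1.5-fold. The medians of the lists lie between -0.16 and 0.15, and Prl8a2 among the decidua markers is the one companion gene called by the size rule on both arrays.

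Markers of neighbouring tissues were read on the same scale; their medians do not measure how much of a tissue a piece held. Of the 9 node and notochord markers all were measured and well above background in all 4 samples, and their median was -0.09 ± 0.02, with 2 above 0 and 5 below 0 on both arrays. Those above 0 were T, the brachyury gene of the notochord (0.33 ± 0.02), and Chrd, a secreted inhibitor of BMP (0.08 ± 0.03), both named after their values were seen. Foxj1, the ciliogenic factor, read -0.52 ± 0.09 and Gsc -0.66 ± 0.20, and neither met the rule. Also below 0 on both arrays were Shh (-0.44 ± 0.07), Nog (-0.40 ± 0.07) and Dand5 (-0.09 ± 0.05), likewise named after their values were seen. Anterior visceral endoderm markers had a median of -0.09 ± 0.16 over 7 measured, of which 1 was above 0 and 3 were below 0 on both arrays, with Cer1 at 0.21 ± 0.01 and Lefty1 at -0.51 ± 0.20. For definitive endoderm the median was -0.03 ± 0.02 over 11 measured, of which 3 were above 0 and 5 below 0 on both arrays. Cxcr4 read -0.43 ± 0.31, and its second probe 0.06.

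Parietal endoderm, the other extraembryonic endoderm, had a median of 0.15 ± 0.07, with 6 of 11 measured genes above 0 on both arrays, 2 below 0 on both and 0 called. The median was 0.04 with array 2 left out. The basement membrane genes Nid1 (0.30 ± 0.19), Lama1 (0.27 ± 0.02) and Lamc1 (0.19 ± 0.20) were in this list. A second Lama1 probe read -0.32, and with the mean of all probes of each gene the median of the list was -0.0068. Trophoblast and extraembryonic ectoderm markers had a median of -0.01 ± 0.09 over 13 measured, with 5 above 0 and 5 below 0 on both arrays; Cdx2 read -0.01 ± 0.25, Plet1 -0.53 ± 0.18 and the placental lactogen gene Prl3d1 0.36 ± 0.09. Extraembryonic mesoderm markers had a median of -0.16 ± 0.06 over 6 measured, with 1 above 0 and 4 below 0 on both arrays; it was -0.07 with array 1 left out and also with no filter on dim probes. Hand1 read -0.33 ± 0.15, Pitx1 0.22 ± 0.28 and Vcam1 -0.22 ± 0.19. For primitive red blood cells the median was -0.08 ± 0.03 over 6 measured, of which 1 was above 0 and 4 were below 0 on both arrays, with Hbb-y at -0.44 ± 0.12, Gata1 at 0.21 ± 0.11 and Epor at -0.04 ± 0.03.

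In the decidua and uterus list, Prl8a2, which encodes a hormone related to prolactin that decidual cells make, was higher at 1.11 ± 0.03, alongside Afm. The list had a median of 0.11 ± 0.03 over 9 of 11 genes measured. Of these, 1 was higher, 0 were lower, 5 were above 0 on both arrays and 2 below 0 on both. Among all measured genes 0.0591% were higher, 2.35% lower, 25.7% above 0 on both and 34% below 0 on both. The median of the list was 0.22 with the software's log ratios and 0.21 with the deposited value table. It was 0.06 with median centring, and 0.065 with both genotypes required to be well above background. Hoxa10 and Esr1 were not measured. Htra3 read -0.39 ± 0.42 (second probe -0.07) and Cryab 0.15 ± 0.04. The summed log2 level of the list was 12.05 and 11.86 in the heterozygote and 12.25 and 12.01 in the homozygote. Without Prl8a2 the homozygote differed from the heterozygote by 0.02 and 0.01. The part of decidual tissue in the ratio of Afm was not tested.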

How the data were processed

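The authors extracted spot values from both scans using Agilent Feature Extraction 9.5.3.1, per the file headers and the submitters' processing notes. The deposited files give foreground and background intensity per spot, a processed intensity, a log10 ratio of red over green, and flags (unit other) that mark saturated and outlying spots and those well above background. The authors also deposited a value table of intensities with 1 column per sample, floored at 15, whose scaling is unstated.

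The 2 files of each array were identical, so each array was read once. Each array had 45018 spots, of which 43379 belonged to genes; 64.0% to 81.5% of the gene spots were well above background in a sample, and 0 were saturated. The software's spiked-in controls had observed ratios compressed, with slopes on the expected values of 0.809 and 0.705. With limma 3.58.1 (R 4.3.3), normexp with an offset of 50 was applied to mean foreground and median background, then loess with control spots at weight 0. Levels come from loess and Aquantile scaling. Outlier spots (179 and 165) were left out, spots of a probe were averaged, and a gene took its brightest measured probe. Gene names were updated through RefSeq (GRCm38.p6, names only), with 33116 of 41174 probes matched; 2 of the member probes were matched by symbol and 15 by accession. Python 3.11.15 with pandas 2.3.3 and matplotlib 3.10.9 gave summaries and plots. The number of arrays limits the precision.

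Members and lists were chosen with earlier results of these data known. All members were named. In each companion list the called genes, the brightest and those farthest from 0 were named. For a called member, the 5 genes nearest in ratio were named. Node and notochord markers with the same sign on both arrays were also named, after their values were seen.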

Additional observations from a re-analysis of the deposited data

How the results depend on the processing

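The member count (1 higher, 0 lower) was kept with no background correction, a normexp offset of 16, the value table, log ratios of the software, the mean of probes and no filter on dim probes. With median centring, 0 members were higher: Afm read 0.57 and array 1 missed the rule. The members' median was then 0.22 and that of all genes 0.12, and Afp read 0.92 and -0.46 on the 2 arrays. Requiring both genotypes well above background on both arrays also left 0 higher, since Afm was dropped. With array 1 or array 2 left out, the members' median ranged from 0.060 to 0.131, and the rule rested on 1 array. Members called higher stayed at 1 and lower at 0, and companion genes called numbered from 1 to 2 higher and from 2 to 4 lower. Of all 18607 measured genes, from 113 to 125 were then higher and from 644 to 945 lower, so nothing is read from these counts. Lrp2 ranged from 0.35 to 0.62 and Afm from 0.57 to 1.59 under the other settings. Lrp2, Cubn, Apob and Ttr kept a mean above 0 in all 8, but Ttr read -0.04 with array 1 left out. With median centring Amn (0.16), Rbp4 (0.13) and Apoa1 (0.07) turned above 0. No paired analysis was possible because no result comes from a test; a ratio already pairs both genotypes on its array. Limits are 1 pool per genotype, 2 technical arrays and compressed ratios. For Afm and for the dimmest measured probes of Apob and Lrp2, a signal near background is a further limit.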
